A study of Homo sapiens with 5 samples.

Results

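Amino acid transporters of the plasma membrane and of organelles were examined in gefitinib-resistant HCC827/GR cells and in the parental HCC827 cells. The members are all entries of the deposited expression table whose gene symbol belongs to the solute carrier families SLC1, SLC3, SLC6, SLC7, SLC36, SLC38 or SLC43. They are 50 symbols among the 37181 genes and assembled loci of the table, and for the 3 symbols with 2 entries (SLC38A4, SLC38A10 and SLC6A16) the entry with the higher mean was taken. HCC827 is a human lung adenocarcinoma cell line, and every library carries the label of an exon 19 deletion. HCC827/GR cells were derived from the parental line by treatment with gradually raised doses for more than 6 months, and gefitinib is an inhibitor of the tyrosine kinase of EGFR. HCC827/GR cells gave 3 libraries (replicates 1, 2 and 3) and HCC827 cells gave 2 (replicates 2 and 3), all of total RNA. Whether the replicates were separate cultures, whether HCC827/GR is a single clone and whether gefitinib was present at harvest are not given in the sources used here, so p-values measure only the spread between these samples.

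Solute carriers move amino acids across membranes by exchange, by facilitated diffusion or by coupling to sodium, chloride or protons. The heavy chain SLC3A2, also called 4F2hc or CD98, brings light chains of the SLC7 family to the cell surface, where SLC7A5 (LAT1) takes up leucine and other large neutral amino acids in exchange for intracellular amino acids such as glutamine. Leucine and arginine that enter the cell are sensed by the mTORC1 kinase complex, and SLC7A5, SLC1A5 and SLC7A11 are transporters often described in lung and other carcinomas.

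Levels are given as FPKM, a fragment number scaled to the length of the transcript and to the size of the library, which lets genes be compared within a library. FPKM holds no read numbers, so the depth of the libraries is unknown, and between 8896 and 9803 of all entries were listed at 0 in a library. Of the lung epithelial markers, 7 had an entry and 6 could be tested, while KRT7 and NAPSA had none. In the limma fit described below, 5 fell in HCC827/GR cells at an adjusted p under 0.05 (EPCAM, CDH1, NKX2-1, KRT19 and KRT18). The share of all tested entries that fell was 5.71%. KRT8 was lower but not called (limma, adjusted p = 0.101). The list's summed FPKM in HCC827/GR cells was 0.461 of that in HCC827 cells. With 1 library left out in turn, EPCAM kept its call in 5 of 5 runs, CDH1, NKX2-1 and KRT19 in 3 of 5 and KRT18 in 0 of 5. EPCAM, the largest of these differences, was at 7.32 to 10.8 FPKM in HCC827/GR libraries and at 72.6 and 86.9 in HCC827 libraries. Of the markers of other cells, 6 had an entry: PTPRC, VWF and DCN were close to 0 in all libraries. The entry named PECAM1 was listed at 0 in all HCC827/GR libraries and at 4.34 and 3.32 FPKM in HCC827 libraries. No transcript of that entry matched the GENCODE release 29 annotation, so whether it measures PECAM1 is not known. CD68 was at 30.8 to 38.9 FPKM and COL1A1 at 0.391 to 0.860 over the 5 libraries, with overlapping groups in both. The part of these marker differences in the results for the transporters was not tested. In bulk samples, a change in the kind of cells and a change in RNA per cell cannot be told apart.

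Which of the transporters differ in RNA level between resistant and parental cells was asked with limma, fitted on log2(FPKM + 1) over the 16189 entries whose mean reached 0.5 FPKM. Of the 50 transporters, 27 passed this filter. Among them, SLC6A20 and SLC6A14 passed only through their HCC827 libraries. SLC7A5, SLC3A2, SLC38A4, SLC43A1 and SLC6A8 rose in HCC827/GR cells, 5 of the 27 tested, and SLC6A9 and SLC6A20 fell, 2 of the 27, at a Benjamini-Hochberg adjusted p under 0.05 over all entries. The share of all tested entries that rose was 5.26%, and the share that fell was 5.71%. SLC6A20 could be tested only through the group in which it was high, so its place in the count of falls is description. The other 20 did not pass the test. The median log2 fold change of the 27 was 0.20 against 0.00 for all entries tested, and 20 of the 27 had a positive value. With the added demand of a fold of at least 2 that the study used, at an unadjusted p under 0.05, 2 transporters were higher (SLC7A5 and SLC3A2) and 0 lower, beside 2.96% and 3.97% of all entries. Without the demand on the fold, 7 were higher and 3 lower at an unadjusted p under 0.05, beside 13.4% and 13.8% of all entries. The 3 lower were SLC6A9, SLC6A20 and SLC6A14, the last 2 tied to the filter as given above. The values of the 2 cell lines did not overlap for 11 transporters with HCC827/GR higher and 4 with HCC827/GR lower, where 22.8% and 23.4% of all entries tested had such values, 46.3% together. SLC6A20 and SLC6A14 are among these 4 as well. Differences on the log2(FPKM + 1) scale understate the change of genes at low levels. The exact permutation test over the 10 splits of 3 against 2 libraries cannot give a p under 0.1 for any single gene.

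**Figure D1:**
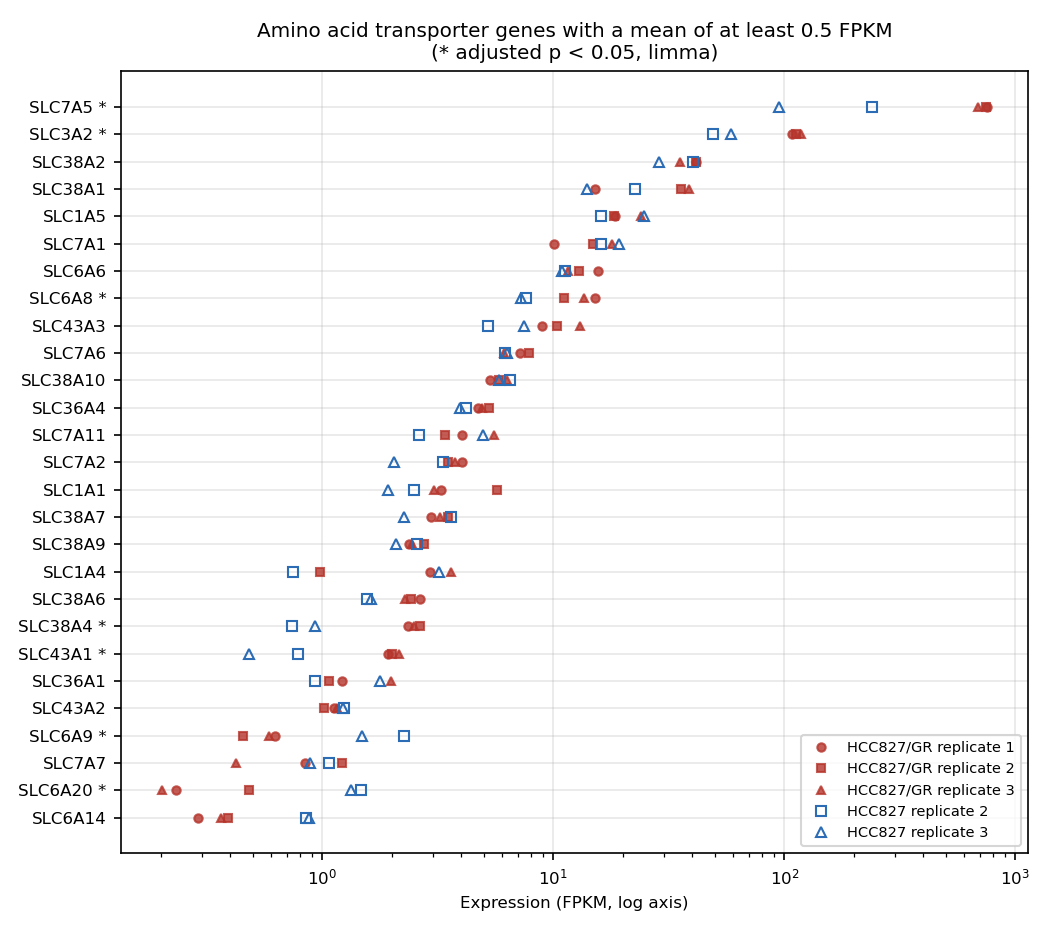
Level in FPKM (x axis, log scale) of the 27 tested transporters, 1 gene a row, with red filled symbols for the 3 HCC827/GR libraries, blue open symbols for the 2 HCC827 libraries and an asterisk for an adjusted p under 0.05. SLC7A5 lies at 689 to 754 FPKM in HCC827/GR cells and at 94.8 and 241 in HCC827 cells, and in SLC6A9 and SLC6A20 the blue symbols lie to the right of the red ones.

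By family, the summed FPKM of SLC7 differed most. It was 780.4, 780.2 and 723 in HCC827/GR replicates 1, 2 and 3 and 270 and 128 in HCC827 replicates 2 and 3, a ratio of means of 3.82. Within SLC7 the difference was that of SLC7A5, with means of 731 FPKM in HCC827/GR and 168 in HCC827 cells. In the same order, the other exchangers that pair with a heavy chain summed to means of 12.3 and 11.1. The cationic transporters and their relatives summed to 18.1 and 20.3. The heavy-chain family SLC3 had a ratio of 2.10. SLC43 had 1.70, SLC38 1.29, SLC6 1.19, SLC36 1.18 and SLC1 1.09, so the other families stayed closer to 1. Members called by the test were 1 of 1 tested in SLC3, 1 of 6 in SLC7, 1 of 7 in SLC38, 1 of 3 in SLC43 and, in both directions, 3 of 5 in SLC6. None of the 3 tested in SLC1 or the 2 in SLC36 was called by limma, and 0 of either family had an unadjusted p under 0.05. All members together made 0.618%, 0.734% and 0.653% of the table's FPKM in the HCC827/GR libraries and 0.327% and 0.191% in the HCC827 libraries. Without SLC7A5 and SLC3A2 the summed FPKM was 192 ± 16.1 in HCC827/GR cells (SD, n = 3) and 160 ± 5.87 in HCC827 cells (SD, n = 2), so most of the difference in summed level was that of these 2 genes. The sums were not tested.

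**Figure D2:**
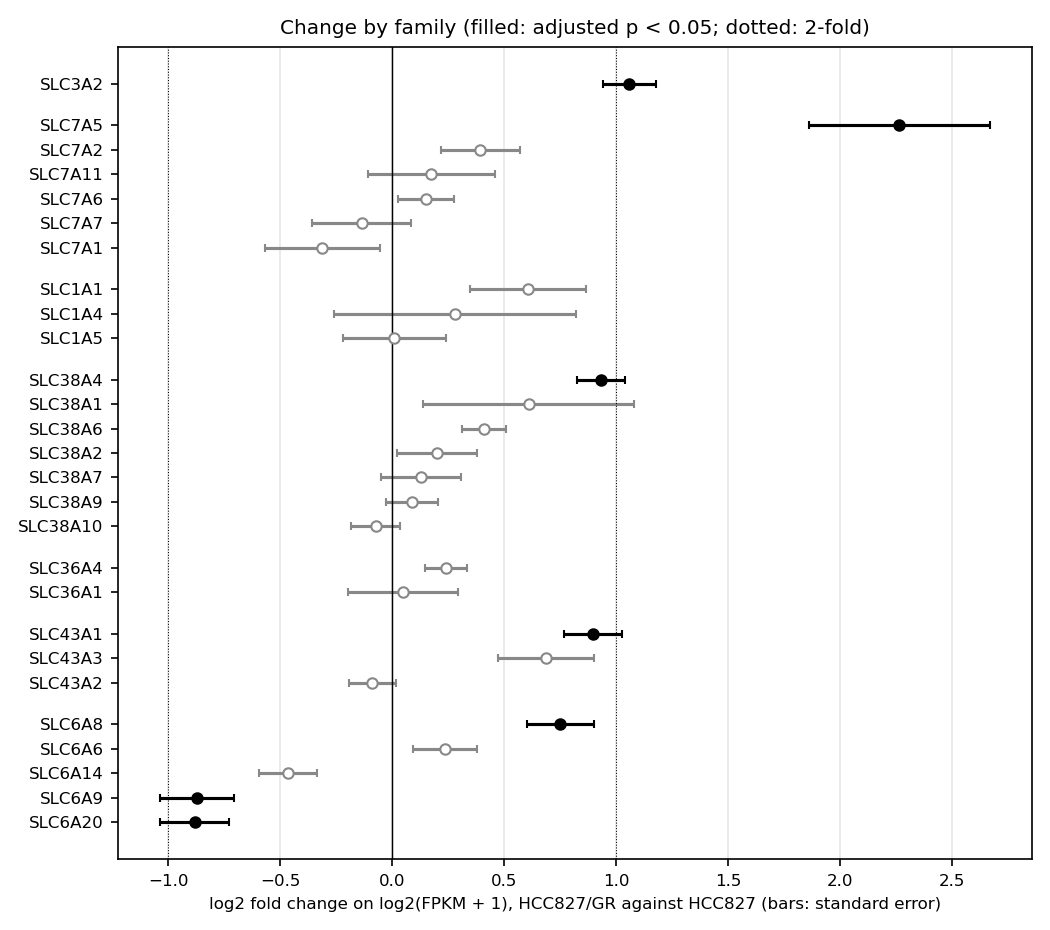
Log2 fold change of HCC827/GR against HCC827 on log2(FPKM + 1) for the 27 tested transporters, grouped by family, with standard errors as bars, filled points for an adjusted p under 0.05 and dotted lines at a fold of 2 in either direction. SLC7A5 at 2.26 and SLC3A2 at 1.06 lie past the dotted line, and the SLC6 genes run from 0.75 for SLC6A8 down to -0.88 for SLC6A20.

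The promoters of the 3 called genes with motifs in their windows are shown because they hold letters of motifs known from amino acid transporter genes. The windows come from RefSeq (GRCh38.p14), from 250 bases before to 50 bases after an annotated start, read 5′ to 3′ on the strand of the gene. Capitals mark CACGTG, the E-box bound by MYC and related factors, TGATGNAA, the core of amino acid response elements bound by ATF4 with a partner, and TGACNNNGC, the core of antioxidant response elements. Both strands were searched, so a motif can appear as its reverse complement. The SLC7A5 window is chr16:87869458-87869757 on the minus strand, that of SLC3A2 is chr11:62881449-62881748 on the plus strand, and that of SLC43A1 is chr11:57515653-57515952 on the minus strand.
SLC7A5: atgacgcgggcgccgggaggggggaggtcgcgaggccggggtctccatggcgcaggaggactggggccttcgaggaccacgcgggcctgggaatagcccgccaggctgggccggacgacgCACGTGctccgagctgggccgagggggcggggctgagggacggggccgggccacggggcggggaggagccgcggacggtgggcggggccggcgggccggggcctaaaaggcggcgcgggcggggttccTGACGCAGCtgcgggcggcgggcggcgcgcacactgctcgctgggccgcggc
SLC3A2: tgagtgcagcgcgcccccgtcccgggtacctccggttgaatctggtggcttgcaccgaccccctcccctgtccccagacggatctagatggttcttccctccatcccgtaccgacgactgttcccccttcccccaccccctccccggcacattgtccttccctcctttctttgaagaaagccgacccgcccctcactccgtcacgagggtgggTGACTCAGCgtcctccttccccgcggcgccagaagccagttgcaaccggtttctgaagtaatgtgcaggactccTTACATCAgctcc
SLC43A1: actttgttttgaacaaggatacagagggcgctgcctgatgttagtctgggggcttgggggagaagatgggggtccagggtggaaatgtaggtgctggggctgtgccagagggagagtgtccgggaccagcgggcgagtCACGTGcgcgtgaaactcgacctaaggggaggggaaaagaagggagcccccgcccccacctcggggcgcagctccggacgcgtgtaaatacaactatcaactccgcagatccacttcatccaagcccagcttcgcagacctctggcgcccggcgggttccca
The E-box of SLC7A5 begins at -130 from the start and its TGACNNNGC match at -2. In SLC3A2, the TGACNNNGC match begins at -37 and the TGATGNAA match, here on the other strand, at 37. The E-box of SLC43A1 begins at -112. The other windows of SLC3A2 (2) and of SLC43A1 (1) held none of these letters, nor did the windows of SLC38A4, SLC6A8, SLC6A9 and SLC6A20.

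Of the 27 tested transporters, 23 had promoter windows, 39 in all. CACGTG was in 6 of these 39 (15.4%) and in 7.26% of all 35116 windows, TGATGNAA in 5 (12.8%) and in 3.62%, and TGACNNNGC in 6 (15.4%) and in 13.3%. TGATGNAA was found in SLC1A4, SLC1A5, SLC38A1, SLC3A2 and SLC7A1, of which SLC3A2 was called. CACGTG was found in SLC1A5, SLC36A1, SLC38A7, SLC43A1, SLC7A5 and SLC7A7, of which SLC43A1 and SLC7A5 were called. These matches describe letters in the windows and were not tested.

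SLC7A5, on chromosome 16 from 87830023 to 87869488 on the minus strand (GENCODE release 29, GRCh38, up to 10 exons per transcript), was the most abundant transporter in every library. Its level was 754, 749 and 689 FPKM in HCC827/GR replicates 1, 2 and 3, and 241 and 94.8 FPKM in HCC827 replicates 2 and 3. All HCC827/GR libraries lay above both HCC827 libraries, the lowest at 2.86 times the higher HCC827 value, while the HCC827 libraries differed from each other by 2.54 times. The means were 731 ± 36.5 (SD, n = 3) and 168 ± 103 (SD, n = 2), a log2 fold change of 2.26 (SE 0.41, limma, adjusted p = 0.0355). Among all entries of the table SLC7A5 ranked 17, 10 and 15 by FPKM in the HCC827/GR libraries and 44 and 155 in the HCC827 libraries. It lost its call when any HCC827/GR library was left out (adjusted p from 0.0970 to 0.112, log2 fold change 2.24 to 2.31) and was past the threshold without either HCC827 library (log2 fold changes of 2.93 and 1.597). In those 2 runs, as for every other gene, the parental arm is 1 library and the spread comes from HCC827/GR alone, so a call kept there says nothing about the spread of parental cells. The call of SLC7A5 was also lost with quantile normalization (adjusted p just above 0.05), without the filter on low values (0.0948) and with a Ballgown-style model (0.358). GENCODE lists the pseudogenes SLC7A5P1 and SLC7A5P2, and how reads from them were assigned is not given in the sources used here.

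SLC3A2, the heavy chain, lies on chromosome 11 from 62856102 to 62888875 on the plus strand. Its level was 108, 113 and 118 FPKM in HCC827/GR cells and 49.0 and 58.7 in HCC827 cells. The values of each line were close together and the groups did not overlap. The log2 fold change was 1.06 (SE 0.12, limma, adjusted p = 0.0122), from means of 113 ± 5.17 (SD, n = 3) and 53.9 ± 6.86 (SD, n = 2). The call was lost without HCC827/GR replicate 1 (adjusted p = 0.0543) and without HCC827 replicate 2 (0.0552), at log2 fold changes between 0.93 and 1.18 over the 5 libraries left out.

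The ratio of SLC7A5 to SLC3A2 in FPKM was 6.997, 6.65 and 5.83 in HCC827/GR cells and 4.91 and 1.61 in HCC827 cells. All 3 resistant libraries were above the parental ones, whose own values differed by more than the distance between the groups' nearest libraries. SLC7A5 made 68.0% to 72.8% of the summed FPKM of all members in HCC827/GR libraries and 53.0% and 30.6% in HCC827 replicates 2 and 3.

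**Figure D3:**
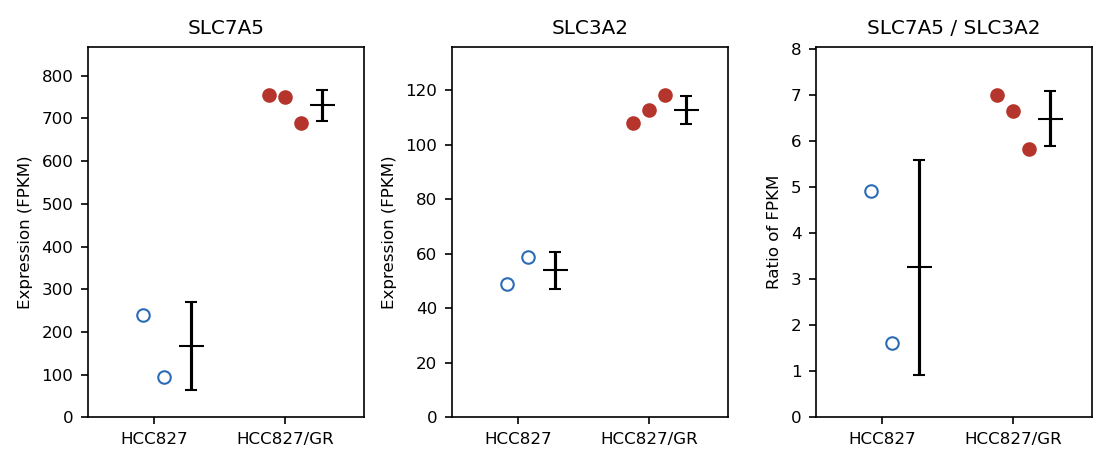
FPKM of SLC7A5, FPKM of SLC3A2 and the ratio of both (y axes from 0) in the 2 HCC827 libraries (blue, open) and the 3 HCC827/GR libraries (red, filled), with the mean and SD of each group beside the points. In all 3 panels the red points lie above the blue ones, and the ratio in HCC827 cells spreads from 1.61 to 4.91.

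The other exchangers that pair with a heavy chain gave no call. Their summed FPKM was 12.2, 12.6 and 12.2 in HCC827/GR cells and 10.01 and 12.2 in HCC827 cells, far below that of SLC7A5 in every library. SLC7A11 (xCT), which imports cystine in exchange for glutamate, had 4.31 ± 1.10 FPKM (SD, n = 3) and 3.79 ± 1.64 (SD, n = 2), and the groups overlapped (log2 fold change 0.17, SE 0.28, limma, adjusted p = 0.752). SLC7A6 (y+LAT2) had 6.10 to 7.85 FPKM in HCC827/GR cells and 6.16 and 6.29 in HCC827 cells (limma, adjusted p = 0.506). SLC7A7 (y+LAT1) had 0.422 to 1.21 FPKM and 1.07 and 0.886 (limma, adjusted p = 0.749). SLC3A1, the heavy chain of the cystine transporter, stood below the filter, at 0.239 to 0.382 FPKM in HCC827/GR cells and 0.0535 and 0.0774 in HCC827 cells. Its light chain SLC7A9 reached at most 0.152 FPKM.

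The cationic transporters, which carry arginine, lysine and ornithine, did not pass the test. SLC7A1 (CAT1) had 10.1, 14.9 and 18.0 FPKM in HCC827/GR cells and 16.1 and 19.2 in HCC827 cells (log2 fold change -0.31, SE 0.26, limma, adjusted p = 0.4996). The lowest value was that of HCC827/GR replicate 1, and the groups overlapped. The SLC7A1 entry holds only short annotated transcripts of at most 3 exons beside assembled ones. SLC7A2 (CAT2) had 3.50 to 4.02 FPKM and 2.04 and 3.32 without overlap (log2 fold change 0.39, SE 0.18, limma, adjusted p = 0.241).

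In the SLC1 family no tested member passed the test. SLC1A5 (ASCT2), a sodium-dependent exchanger of glutamine and other neutral amino acids, had 18.6, 18.2 and 23.9 FPKM in HCC827/GR cells and 16.1 and 24.8 in HCC827 cells. Both the lowest and the highest value were from HCC827 libraries, and the means were 20.3 ± 3.203 (SD, n = 3) and 20.4 ± 6.16 (SD, n = 2). The log2 fold change was 0.01 (SE 0.23, limma, adjusted p = 0.985). SLC1A4 (ASCT1), an exchanger of alanine, serine and cysteine, had 2.91, 0.980 and 3.60 FPKM in HCC827/GR cells and 0.750 and 3.203 in HCC827 cells (limma, adjusted p = 0.794). SLC1A1 (EAAC1), a glutamate and aspartate transporter of epithelia and neurons, was higher in all HCC827/GR libraries, at 3.26, 5.68 and 3.05 FPKM against 2.50 and 1.92, but did not pass the test (log2 fold change 0.61, SE 0.26, limma, adjusted p = 0.223).

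In SLC1A5, SLC7A11, SLC1A4 and SLC36A1, 4 of the 27 tested (14.8%), both replicate 2 libraries lay below the other 3, as in 8.20% of all entries tested. These genes were picked for this after their values were seen. In SLC1A4 the highest HCC827/GR library had 3.68 times the level of the lowest, and HCC827 replicate 3 had 4.27 times that of replicate 2.

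In the SLC38 family, system A transporters carry small neutral amino acids such as alanine and glutamine with sodium. SLC38A2 (SNAT2) had 41.4, 41.5 and 35.2 FPKM in HCC827/GR cells and 40.3 and 28.8 in HCC827 cells, which overlap (log2 fold change 0.20, SE 0.18, limma, adjusted p = 0.540). SLC38A1 (SNAT1) had 15.2, 35.8 and 38.7 FPKM and 22.6 and 14.0, with HCC827/GR replicate 1 among the HCC827 values (log2 fold change 0.61, SE 0.47, limma, adjusted p = 0.473). SLC38A4 (SNAT4) was the member of this group that rose. Its level was 2.36, 2.66 and 2.48 FPKM in HCC827/GR cells and 0.740 and 0.933 in HCC827 cells. The 3 resistant values were close together and well above both parental ones. The means were 2.50 ± 0.151 (SD, n = 3) and 0.836 ± 0.137 (SD, n = 2), a log2 fold change of 0.93 (SE 0.11, limma, adjusted p = 0.0129) and a log2 ratio of the means of 1.58. Its call was kept without HCC827/GR replicate 3 and was lost, with adjusted p from 0.0524 to 0.0699, when any of the other 4 libraries was left out. The 3 genes lie on chromosome 12, SLC38A1 from 46183063, SLC38A2 from 46358189 and SLC38A4 from 46764761 to 46832408. SLC38A4 stood at a small part of the level of its neighbours in each library.

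The system N transporters SLC38A3 and SLC38A5, which carry glutamine and histidine, were below 0.1 FPKM in every library. SLC38A6 had 2.28 to 2.65 FPKM in HCC827/GR cells and 1.56 and 1.63 in HCC827 cells, with no overlap and a log2 fold change of 0.41 (SE 0.10, limma, adjusted p = 0.0703). Its entry also joins transcripts of MNAT1. SLC38A7, SLC38A9, the lysosomal arginine sensor of mTORC1, and SLC38A10 had overlapping values, with log2 fold changes of 0.13, 0.09 and -0.07 and adjusted p from limma of 0.706, 0.686 and 0.716.

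The transporters of SLC36 were not called. SLC36A4 was higher in all HCC827/GR libraries, at 4.70 to 5.26 FPKM against 4.17 and 3.93, with a log2 fold change of 0.24 (SE 0.09, limma, adjusted p = 0.187). SLC36A1, which exports small amino acids from lysosomes, had 1.07 to 1.98 FPKM and 0.927 and 1.77 (limma, adjusted p = 0.924).

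Among the SLC43 facilitators, SLC43A1 (LAT3), which carries large neutral amino acids without a heavy chain, rose. It lies on chromosome 11 from 57484534 to 57515786. Its level was 1.92, 2.01 and 2.16 FPKM in HCC827/GR cells and 0.788 and 0.480 in HCC827 cells. The 3 resistant values lay close together above both parental ones. The log2 fold change was 0.90 (SE 0.13, limma, adjusted p = 0.0216) and the log2 ratio of the means 1.68. Leaving out any of the 5 libraries took the adjusted p to between 0.0549 and 0.0761. SLC43A3, its neighbour from 57406954, which carries purine bases, had 8.89 to 12.998 FPKM and 5.20 and 7.43, also without overlap, and did not pass the adjusted threshold (log2 fold change 0.68, SE 0.21, limma, adjusted p = 0.124). That entry also joins PRG2 and AP000781.2. SLC43A2 (LAT4) had 1.02 to 1.16 FPKM and 1.24 and 1.23 (limma, adjusted p = 0.643).

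The sodium- and chloride-coupled SLC6 family held members that rose and members that fell. SLC6A8, the creatine transporter, on chromosome X from 153688099 to 153696593, rose from 7.60 and 7.27 FPKM in HCC827 cells to 15.2, 11.1 and 13.5 in HCC827/GR cells. All resistant libraries exceeded both parental ones, which were nearly equal. The log2 fold change was 0.75 (SE 0.15, limma, adjusted p = 0.0448). The call was kept without HCC827/GR replicate 2 and lost without any of the other 4 libraries, with adjusted p from 0.106 to 0.169, and SLC6A10P is a listed pseudogene of this gene. SLC6A6, the taurine transporter, had 11.6 to 15.6 FPKM and 10.9 and 11.3, without overlap, and did not pass the test (log2 fold change 0.24, SE 0.14, limma, adjusted p = 0.363).

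SLC6A9 (GLYT1), a glycine transporter on chromosome 1 from 43991500 to 44031467, fell. Its level was 0.626, 0.451 and 0.587 FPKM in HCC827/GR cells and 2.25 and 1.48 in HCC827 cells. The resistant libraries were all below 1 FPKM and both parental ones above it. The log2 fold change was -0.87 (SE 0.16, limma, adjusted p = 0.0389), and the log2 ratio of the means -1.75. SLC6A20 (SIT1), which carries proline and other imino acids, on chromosome 3 from 45755450 to 45796535, had 0.233, 0.480 and 0.203 FPKM in HCC827/GR cells and 1.46 and 1.33 in HCC827 cells. The groups were again well apart, with a log2 fold change of -0.88 (SE 0.16, limma, adjusted p = 0.0337) and a log2 ratio of the means of -2.19. Both lost their call when any library was left out, with adjusted p of 0.0551 to 0.108 for SLC6A9 and 0.0547 to 0.118 for SLC6A20. SLC6A14, a broad carrier of neutral and cationic amino acids, was at 0.291 to 0.392 FPKM and 0.848 and 0.875 and missed the threshold (log2 fold change -0.47, SE 0.13, limma, adjusted p = 0.0998). SLC6A20 and SLC6A14 reached the filter mean of 0.5 FPKM only through their HCC827 libraries, with HCC827/GR means of 0.306 and 0.348 FPKM. Their lower values are thus tied to the filter and are given as description. With a pseudocount of 0.1 the call of SLC6A20 was lost (limma, adjusted p = 0.0542).

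The remaining 23 transporters were below the mean of 0.5 FPKM, and 18 of them stayed under 0.1 FPKM in every library. They include the glutamate transporters SLC1A2, SLC1A3 and SLC1A7, the neurotransmitter transporters SLC6A4, SLC6A11 and SLC6A13, the light chains SLC7A8, SLC7A9, SLC7A10 and SLC7A13, and SLC7A4, SLC7A14, SLC38A3, SLC38A5, SLC38A8, SLC38A11, SLC6A7, SLC6A12, SLC6A16, SLC6A17, SLC6A19 and SLC3A1. SLC6A17 was listed at 0 in all libraries. The highest value among the 23 was 1.40 FPKM, SLC6A16 in HCC827 replicate 2, where HCC827 replicate 3 was listed at 0. This SLC6A16 entry holds only an assembled transcript and none that matched the GENCODE annotation. SLC6A11, a GABA transporter, had 0.136 to 0.159 FPKM in HCC827/GR cells and 0.441 and 0.377 in HCC827 cells.

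Genes that work with these transporters were counted in the same fit, beside the shares of all entries already given. Among 10 tested of the other amino acid carriers, mitochondrial, vesicular and lysosomal, 0 were called by limma, while 5 were higher at an unadjusted p under 0.05, as were 13.4% of all entries. Of 7 tested partner and anchoring proteins 1 rose. It was PDZK1, a scaffold for membrane transporters, at 7.77, 8.38 and 4.56 FPKM in HCC827/GR cells against 0.912 and 0.614 (log2 fold change 2.13, limma, adjusted p = 0.0151). At an unadjusted p under 0.05, 3 of the 7 were higher and 0 lower. Of 8 tested genes of branched-chain amino acid catabolism 1 rose, DLD, the dihydrolipoamide dehydrogenase (0.51, adjusted p = 0.0336), and 7 were not called, BCAT1, BCAT2, BCKDHA, BCKDHB and DBT among them. Of the 8, 2 were higher and 0 lower at an unadjusted p under 0.05. Of 8 tested genes of glutathione synthesis and its turnover 1 rose, GGT1, a gamma-glutamyltransferase (0.77, adjusted p = 0.0185). Here 1 was higher and 1 lower at an unadjusted p under 0.05.

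Of 11 tested genes of glutamine and aspartate metabolism, PPAT, the first enzyme of purine synthesis, rose (log2 fold change 0.70, limma, adjusted p = 0.0319). GOT2, the mitochondrial aspartate aminotransferase, fell from 67.4 and 75.2 FPKM in HCC827 cells to 32.6, 33.6 and 36.0 in HCC827/GR cells (log2 fold change -1.05, limma, adjusted p = 0.0100). ASS1, the argininosuccinate synthase, fell too (-0.70, adjusted p = 0.0413). Of these 11 genes, 2 were higher and 4 lower at an unadjusted p under 0.05. Of 22 tested genes of the amino acid response, the programme that ATF4 drives when amino acids are short, 1 rose and 5 fell. The list was drawn up without any transporter, so SLC7A5 and SLC3A2 are not counted in it. ASNS, which is on the list, had no entry. The median log2 fold change was -0.48, and 16 were not called. At an unadjusted p under 0.05 from limma, 2 of the 22 were higher and 10 lower, beside 13.4% and 13.8% of all entries. ATF4 itself, counted among these 16, had 11.7, 56.5 and 46.2 FPKM in HCC827/GR cells and 95.9 and 16.8 in HCC827 cells. Its groups overlapped (log2 fold change -0.35, limma, adjusted p = 0.864). VLDLR, a lipoprotein receptor, rose (1.40, adjusted p = 0.0109). PSPH, the phosphoserine phosphatase of serine synthesis, had 12.9, 12.2 and 13.3 FPKM in HCC827/GR cells and 32.5 and 37.5 in HCC827 cells (-1.38, limma, adjusted p = 0.00556). SESN2, a leucine sensor (-0.83, adjusted p = 0.0476), and WARS, a tryptophan tRNA synthetase (-0.71, adjusted p = 0.0385), fell as well. The other 2 that fell were the tRNA synthetases AARS and CARS, named here after their values were seen, whereas the glycine tRNA synthetase GARS of the same list was at 71.4 ± 4.70 FPKM in HCC827/GR cells (SD, n = 3) and 58.9 ± 2.43 in HCC827 cells (SD, n = 2) and did not pass the test (0.27, adjusted p = 0.178). Of 29 tested genes of amino acid sensing upstream of mTORC1, 0 rose and 1 fell by limma, again SESN2, and at an unadjusted p under 0.05 there were 5 higher and 2 lower, beside 13.4% and 13.8% of all entries.

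Of the genes named from these lists, PSPH kept its call with each of the 5 libraries left out (2 of these runs with 1 parental library), VLDLR and GOT2 in 4 of 5, and PDZK1, GGT1 and WARS in 1 of 5. DLD, PPAT, ASS1, SESN2, AARS and CARS kept it in 0 of 5.

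**Figure D4:**
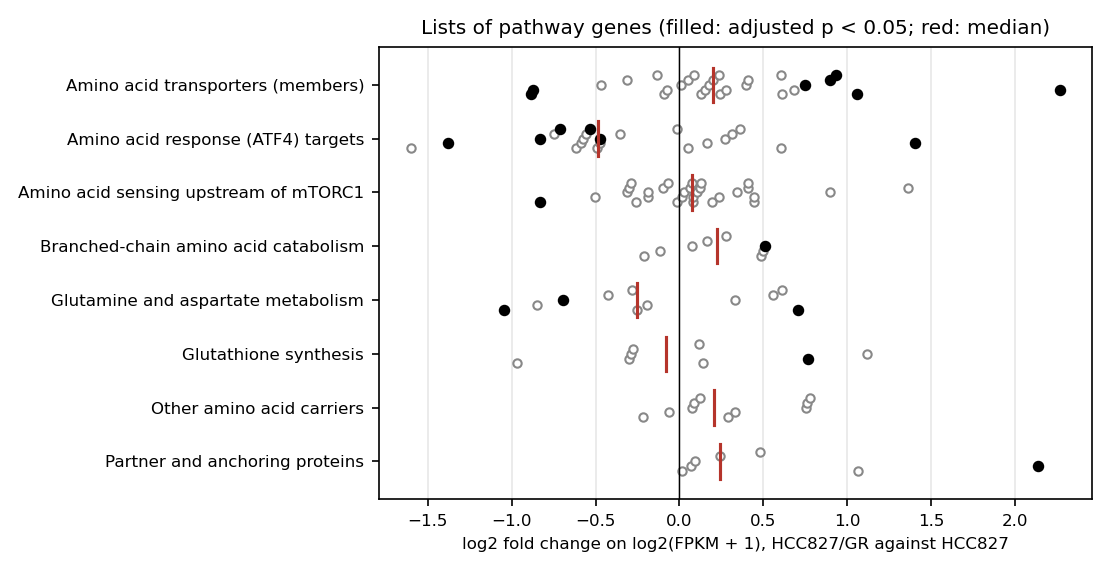
Log2 fold change of HCC827/GR against HCC827 on log2(FPKM + 1) (x axis) of each tested transporter and each tested gene of the related lists, with filled points for an adjusted p under 0.05 and red bars for the median of a row. The amino acid response targets, a list drawn up without transporters, have a median of -0.48 and the transporters one of 0.20.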

How the data were processed

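RNA from 3 HCC827/GR and 2 HCC827 libraries was analysed. The authors deposited FPKM values per gene or assembled locus, made after trimming with Cutadapt, mapping with Bowtie2 and TopHat2 and assembly with StringTie and Ballgown; versions are not given in the sources used here. The submitters' processing notes name hg18, so no coordinate of the table was used, and positions were taken from GENCODE release 29 through transcript identifiers. The labels describe a small-RNA kit with single-end reads and the study's methods an mRNA library with paired-end reads; which of them the FPKM values come from is not settled here. 1 FPKM column that matched no sample was not used. FPKM holds no counts, so no count model or counting error was possible.

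limma 3.58.1 in R 4.3.3 (lmFit, eBayes with trend, two-sided) was run on log2(FPKM + 1) for entries with a mean of at least 0.5, with Benjamini-Hochberg adjustment over all of them. The code was also run on simulated normal noise whose spread followed the mean level. That run had no outlying libraries and does not bear on the calls given here. Named were all transporters but 1, which is not reported here, and from each list at most 4 genes with the largest log2 fold change among those called, AARS and CARS being added after their values were seen. Alternatives were a pseudocount of 0.1, other filters, scalings and models, summed entries, the study's thresholds and each library left out. The members, lists and motifs were chosen with earlier results of these data known. Python 3.11.15 was used for the remaining steps.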

Additional observations from a re-analysis of the deposited data

How the results depend on the processing

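The counts of transporters that rose and fell (5 and 2) were 5 and 1 with a pseudocount of 0.1, 2 and 0 without a filter (SLC7A5 among those lost), 5 and 1 with a mean of at least 1 FPKM (SLC6A20 was not tested there), 3 and 2 with quantile normalization (SLC7A5 and SLC6A8 lost), 4 and 2 without the trend, 0 and 0 with a Ballgown-style model, 2 and 0 with the study's thresholds and 4 and 3 with those on the ratio of means. Median-ratio scaling and summed entries left them at 5 and 2. With each library left out they were between 0 and 2 and at 0. Over all entries the Ballgown-style model called 6 higher and 9 lower, and leaving out a library 202 to 485 and 287 to 477, against 851 and 924. The replicate number as a block gave 0 and 0 members and 0 and 0 entries, with 8 and 2 members at an unadjusted p under 0.05, beside 10.4% and 11.5% of all entries. The numbers do not pair the samples by any label, and the deviations of the same-numbered libraries correlated at 0.033 and 0.015. SLC1A5 changed sign with quantile normalization (-0.031), the Ballgown-style model (-0.17) and the log2 ratio of means (-0.011). With the Ballgown-style model SLC7A11 (-0.028), SLC36A1 (-0.17) and SLC7A7 (0.041) did too. With a library left out, SLC1A5 ran from -0.29 to 0.31, SLC36A1 from -0.21 to 0.31, SLC7A7 from -0.29 to 0.031, SLC7A11 from -0.18 to 0.53, SLC1A4 from -0.35 to 0.91, SLC38A2 from -0.037 to 0.43, SLC38A7 from -0.13 to 0.38 and SLC38A9 from -0.017 to 0.19. The cause of these changes was not tested. FPKM gives no depth, so precision at low levels is unknown.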
